A study of Mus musculus with 7 samples.

Results

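Vascular endothelial growth factor (VEGF) signalling was followed through 9 genes, chosen by name with earlier results of these data known. The genes were the ligands Vegfa, Vegfb, Vegfc and Pgf, the receptor tyrosine kinases Kdr, Flt1 and Flt4, and the neuropilins Nrp1 and Nrp2. They were read by 22 probe sets that the array annotation gives to exactly 1 gene, of 34945 such probe sets for 18193 genes. The arrays were hybridised with RNA from mouse skin tumours raised with DMBA, a carcinogen, and TPA, a tumour promoter, and all cells had been sorted for Cd34, a surface antigen of follicle stem cells, tumour-propagating keratinocytes and endothelium, and for Epcam, an epithelial adhesion molecule. Carcinomas, the malignant form, gave 4 arrays, carcinoma GFP and carcinomas 1, 2 and 3, and papillomas, the benign form, gave 3 arrays, papilloma GFP and papillomas 1 and 2. The sample descriptions name Nr2f2, a nuclear receptor, beside both tumour types without a genotype, and no strain, age or animal is given, so p-values measure the spread between these arrays, which may be technical. The titles give no meaning for the tag GFP, and the arrays without it are called untagged here. Levels are log2 values after RMA, the standard Affymetrix normalization, so a difference of 1 is a doubling, and 7 arrays limit how precise any value can be.

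VEGF ligands are secreted dimers. Vegfa binds Kdr, the main signalling receptor of blood endothelium, and Flt1, which also acts as a decoy. Pgf and Vegfb bind Flt1, and Vegfc binds Flt4, the receptor of lymphatic endothelium. Nrp1 and Nrp2 are co-receptors that also bind class 3 semaphorins, and in skin tumours Vegfa is known as a product of keratinocytes that acts on vessels and, through Nrp1, on the tumour cells themselves.

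The brightest probe set of a gene is the one with the highest mean level over all 7 arrays, the GFP arrays included. On their brightest probe sets 7 of the 9 genes passed the test along the GFP tag, 5 higher and 2 lower, against 11% and 7.11% of all genes. Between the tumour types 0 passed it, as did 0% of all probe sets. On the same brightest probe sets Vegfa, Vegfb, Pgf and Nrp2 were above the dim limit, a level set by genes not known to be used in skin, on all untagged arrays. Their smallest margins were 2.56, 0.92, 0.51 and 1.77 log2 units, so Vegfb and Pgf came as close to the limit on some arrays as Kdr and Flt1 did. Vegfc was below it on all of them but carcinoma 2, Nrp1 was above it on all of them but carcinoma 3, and Kdr, Flt4 and the brightest Flt1 probe set were above it by 1.22 log2 units or less. In the GFP arrays Vegfc, Kdr, Flt1, Flt4 and Nrp1 were higher, with fitted differences of 5.40 to 6.44 log2 units on the brightest probe set of each gene, and Vegfa and Vegfb differed by -1.79 and -0.95. This choice of probe set favours those that are high in the GFP arrays. By the mean of the untagged arrays it would change for Nrp1 alone, to 1448943_at, with a difference of 4.66. The other Flt4 probe set, with a similar untagged mean (5.67 against 5.71), differed by 1.57. The dim limit was set on each array at the 95th percentile of 83 probe sets of olfactory, vomeronasal and taste receptors, genes that skin cells are not known to use. It lay at 5.38 in carcinoma GFP, 5.36 in papilloma GFP, 5.21, 5.40 and 5.71 in carcinomas 1 to 3, and 5.07 and 6.03 in papillomas 1 and 2. Each probe set has its own unspecific signal, so a level slightly above this limit does not show a transcript. Where 0 or 1 of the untagged arrays passed the limit, the fitted difference is largely against background and the size is given as at least N-fold: the mean of the GFP arrays against the untagged mean with each level raised to its array's limit. A limma adjusted p printed beside such a size is that of the fitted difference, and the size itself was not tested.

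Of the 22 probe sets, 11 were above the dim limit on all 5 untagged arrays, where 44.7% of all probe sets were, and 21 were above it on both GFP arrays, where 55.5% of all were. On both GFP arrays and on 0 untagged arrays 3 of the 22 were above it, 1 of Vegfc and 2 of Flt1, as were 2.31% of all. At the 99th percentile of the same receptors 7 of the 22 stayed above the limit on all untagged arrays, where 36.7% of all probe sets did. The 7 were those of Vegfa (2), Vegfb, Kdr, Nrp2 (2) and the brightest of Flt1. The GFP arrays were compared with the untagged arrays by limma with the tumour type as a covariate. At a limma adjusted p under 0.05 the GFP arrays were higher on 15 of the 22 probe sets and lower on 3, where the shares of all probe sets were 9.15% and 6.85%. Without papilloma GFP 9 were higher, and 0 were lower without either GFP array and 1 without carcinoma 2. On the brightest probe set of each gene 5 of 9 were higher and 2 lower, against 11% and 7.11% of 18193 genes, and the 2 lower calls became 0 without carcinoma GFP, papilloma GFP or carcinoma 2 and 1 without carcinoma 1, carcinoma 3 or papilloma 1. Both GFP arrays lay above every untagged array on 17 of the 22 probe sets and below every untagged array on 3, where the shares of all probe sets were 17.8% and 20.1%. Probe sets of 1 gene read the same transcripts and are not independent.

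**Figure D1:**
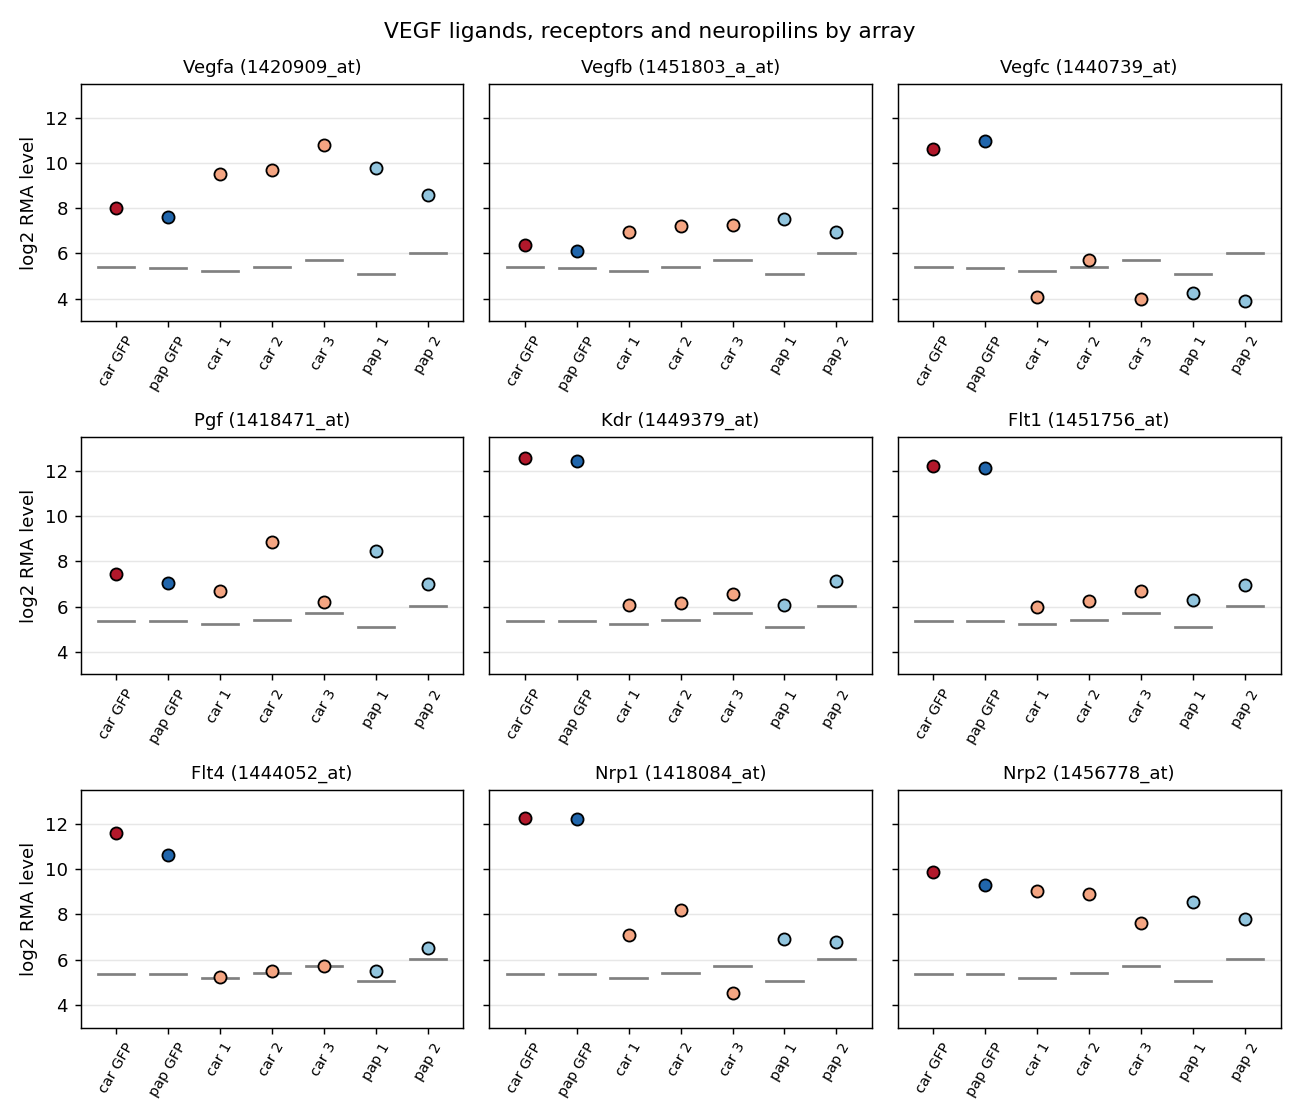
Log2 RMA level (vertical axis) of the brightest probe set of each of the 9 genes in each array (horizontal axis; car is carcinoma, in red shades, and pap is papilloma, in blue shades), with a grey bar at the dim limit of that array. The GFP arrays stand at 10.63 to 12.54 for Vegfc, Kdr, Flt1, Flt4 and Nrp1, above all untagged arrays, and at 7.63 and 8.0 for Vegfa, below all untagged arrays.

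Several other measures moved with the tag, and their part in the differences was not tested. The GFP arrays were higher for all 15 markers of blood endothelium, and for 4 of 5 lymphatic, 7 of 10 fibroblast, 5 of 9 pericyte and smooth muscle, and 3 of 8 myeloid and leukocyte markers. The share of all genes was 11%. Of the lymphatic markers Prox1 stood at 4.59 in papilloma GFP, below the dim limit, so its rise rests on carcinoma GFP. The mean level of the blood endothelial list was 10.60 and 10.67 in the GFP arrays and 5.34 to 5.77 in the untagged arrays. In the untagged arrays 3 of these 15 markers (Esam, Egfl7 and Eng) were above the dim limit on every array, against 53.9% of all genes. On none of them were 4 (Erg, Robo4, Vwf and Clec14a) above it. Of 9 keratinocyte markers 6 were lower in the GFP arrays and 0 higher, against 7.11% and 11% of all genes, with a median difference of -1.27. The list means were 10.81 to 10.97 in the GFP arrays and 11.80 to 12.36 in the untagged arrays. All 9 were above the dim limit on all untagged arrays. Of the sorting antigens Epcam differed by -2.40 (SE 0.48, limma adjusted p = 0.0186) and Cd34 differed by 1.82 (SE 0.51, limma adjusted p = 0.0581). For Gapdh, the 3' control probe set exceeded the 5' one, a gap that widens with short RNA, by 3.19 on both GFP arrays and by -0.04 to 0.06 on the untagged arrays. For Actb the same gap was 2.21 (carcinoma GFP) and 2.58 (papilloma GFP), against 0.51 to 0.87 on the untagged arrays, a smaller contrast. In such sorted bulk RNA, more cells of a type and more RNA per cell cannot be told apart.

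Vegfa, the main angiogenic ligand, was expressed in all untagged arrays and lower in the GFP arrays. On the probe set 1420909_at it stood at 8.0 (carcinoma GFP) and 7.63 (papilloma GFP), against 9.50, 9.69 and 10.78 in untagged carcinomas 1 to 3 and 9.79 and 8.59 in untagged papillomas 1 and 2. Carcinoma 3 was highest, papilloma 2 was the lowest untagged array, and the GFP and untagged groups did not overlap. The difference was -1.79 (SE 0.46, limma adjusted p = 0.0432). The other probe set, 1451959_a_at, gave 6.74 and 6.43 in carcinoma GFP and papilloma GFP, against 7.97, 8.26 and 8.30 in the untagged carcinomas and 8.33 and 7.43 in the untagged papillomas, a difference of -1.44 (SE 0.27, limma adjusted p = 0.0142). The call on 1420909_at ended without carcinoma 1 (adjusted p = 0.0578), carcinoma 2 (0.0795), papilloma 1 (0.0782), carcinoma GFP (0.349) or papilloma GFP (0.183), where the difference lay between -1.99 and -1.56. The median difference of the keratinocyte markers was -1.27. With arrays shifted to equal keratinocyte marker means the median tag difference of all probe sets moved to 1.20, and Vegfa differed by -0.51 (limma adjusted p = 0.254). Relative to the median of all probe sets Vegfa differed by -1.72 with and without this shift, which moves all probe sets of an array alike and cannot change that value.

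Vegfb, a ligand of Flt1 linked to lipid handling in muscle, spanned 0.59 units over the untagged arrays. Its only probe set here, 1451803_a_at, gave 6.35 (carcinoma GFP) and 6.10 (papilloma GFP), against 6.94, 7.21 and 7.26 in the untagged carcinomas and 7.53 and 6.95 in the untagged papillomas. Both GFP arrays lay below all untagged arrays, and the difference was -0.95 (SE 0.22, limma adjusted p = 0.0327). The call ended without carcinoma 2 (limma adjusted p = 0.0789) or carcinoma 3 (0.0577). It also ended without carcinoma GFP, where the difference was -1.14, and without papilloma GFP, where it was -0.785. With arrays shifted to equal keratinocyte marker means the difference turned to 0.32 (limma adjusted p = 0.221). Relative to the median of all probe sets Vegfb differed by -0.88 with and without this shift, which cannot change that value.

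Pgf, placental growth factor, varied more among the untagged arrays than Vegfa, Vegfb and Vegfc and did not separate by the tag. Its probe set 1418471_at gave 7.42 (carcinoma GFP) and 7.04 (papilloma GFP), against 6.69, 8.84 and 6.22 in untagged carcinomas 1 to 3 and 8.45 and 6.99 in untagged papillomas 1 and 2. Carcinoma 2 and papilloma 1 were high and carcinoma 3 low, and the GFP arrays lay inside this range. The untagged levels were 0.51 to 3.43 units above the dim limits of their arrays, and 4 of 5 passed the limit at the 99th percentile. The tag difference was -0.23 (95% interval -2.06 to 1.60, limma adjusted p = 0.882), so a difference of 1 unit either way lies inside the interval.

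Vegfc, the lymphangiogenic ligand of Flt4, showed the reverse of Vegfa. On 1440739_at it stood at 10.63 (carcinoma GFP) and 10.97 (papilloma GFP), against 4.06, 5.71 and 4.0 in untagged carcinomas 1 to 3 and 4.23 and 3.91 in untagged papillomas 1 and 2. Among the untagged arrays only carcinoma 2 passed the dim limit, by 0.31 units, and it fell short of the stricter limit. The fitted difference was 6.44 (SE 0.51, limma adjusted p = 0.000546), mostly against background, and the GFP arrays were at least 38.1-fold higher. They were at least 37.1-fold higher on 1439766_x_at, where 1 of 5 untagged arrays passed the limit, and at least 28.6-fold on 1419417_at, where 0 did (limma adjusted p = 0.00109 and 0.000615). Carcinoma 2 was also the highest untagged array on these probe sets, at 5.78 and 5.18.

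Kdr, read by the single probe set 1449379_at, was far higher in both GFP arrays than in all untagged arrays. It stood at 12.54 (carcinoma GFP) and 12.44 (papilloma GFP), against 6.07, 6.17 and 6.57 in untagged carcinomas 1 to 3 and 6.05 and 7.11 in untagged papillomas 1 and 2. The untagged levels were 0.76 to 1.09 units above the dim limits of their arrays, with the highest level on papilloma 2, the array with the highest limit. The difference was 6.08 (SE 0.32, limma adjusted p = 0.000121), measured against untagged levels close to the limit. Within carcinomas carcinoma GFP exceeded the untagged mean by 6.28, and within papillomas papilloma GFP did so by 5.86.

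Flt1, which binds Vegfa, Vegfb and Pgf, was read by 4 probe sets that differed in their untagged level. The brightest, 1451756_at, gave 12.20 (carcinoma GFP) and 12.11 (papilloma GFP), against 5.99, 6.25 and 6.67 in the untagged carcinomas and 6.29 and 6.96 in the untagged papillomas, all above the dim limit. On 1440926_at the levels were 11.04 and 11.11, against 4.93, 4.90 and 5.18 in the untagged carcinomas and 5.41 and 5.09 in the untagged papillomas, where papilloma 1 alone passed the limit. On 1419300_at and 1454037_a_at 0 of 5 untagged arrays passed it. The tag difference on 1451756_at was 5.70 (SE 0.28, limma adjusted p = 9.39e-05). The GFP arrays were at least 45.9-fold higher on 1440926_at, 43.4-fold on 1419300_at and 12.8-fold on 1454037_a_at (limma adjusted p = 3.29e-05, 5.29e-05 and 6.90e-05). Groups were far apart on all 4 probe sets, and the untagged arrays spanned 0.98 units or less on each.

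Flt4, the receptor of Vegfc, was read by a bright and a dim probe set. On 1444052_at it stood at 11.60 (carcinoma GFP) and 10.64 (papilloma GFP), against 5.25, 5.52 and 5.74 in the untagged carcinomas and 5.52 and 6.52 in the untagged papillomas. The untagged levels lay within 0.50 units of the dim limits, and papilloma 2 alone passed the stricter limit. The difference was 5.40 (SE 0.41, limma adjusted p = 0.000494). On 1421442_at the levels were 7.39 and 7.10, against 5.49, 5.48 and 5.90 in the untagged carcinomas and 5.23 and 6.25 in the untagged papillomas, a difference of 1.57 (SE 0.31, limma adjusted p = 0.0178). Both probe sets rose, by very different amounts.

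Promoter windows are shown for Kdr and Flt1, each among the 3 genes nearest in profile to the other, and for the ligands Vegfc and Vegfa, which moved in opposite directions along the tag. Windows run from 250 bases before to 50 after a transcript start in RefSeq (GRCm38.p6), which had windows for all 9 genes, and capitals mark GC boxes (GGGCGG, on either strand) and the ETS-type motif AGGAAG (either strand). Kdr lies on the minus strand at chr5:75978406-75978705, Flt1 on the minus strand at chr5:147725962-147726261, Vegfc on the plus strand at chr8:54077282-54077581, and Vegfa on the minus strand at chr17:46032328-46032627, the more upstream of 2 listed starts.
Kdr: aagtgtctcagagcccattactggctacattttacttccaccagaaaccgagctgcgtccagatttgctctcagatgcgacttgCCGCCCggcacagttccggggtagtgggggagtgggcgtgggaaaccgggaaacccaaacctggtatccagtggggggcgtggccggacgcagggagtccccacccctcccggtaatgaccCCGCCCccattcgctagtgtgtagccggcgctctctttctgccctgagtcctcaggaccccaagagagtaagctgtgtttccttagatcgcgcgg
Flt1: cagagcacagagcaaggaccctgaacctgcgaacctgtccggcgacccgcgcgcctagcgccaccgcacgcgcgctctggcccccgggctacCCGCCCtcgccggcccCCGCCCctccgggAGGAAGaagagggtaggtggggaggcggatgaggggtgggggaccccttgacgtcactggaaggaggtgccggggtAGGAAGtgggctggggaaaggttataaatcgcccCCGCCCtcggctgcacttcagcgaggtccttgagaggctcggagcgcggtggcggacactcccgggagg
Vegfc: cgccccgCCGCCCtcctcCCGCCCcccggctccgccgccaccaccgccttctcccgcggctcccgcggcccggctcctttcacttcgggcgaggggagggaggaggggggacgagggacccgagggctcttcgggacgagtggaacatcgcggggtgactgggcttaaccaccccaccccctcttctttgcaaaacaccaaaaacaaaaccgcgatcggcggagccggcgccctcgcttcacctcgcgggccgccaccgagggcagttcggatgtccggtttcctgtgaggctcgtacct
Vegfa: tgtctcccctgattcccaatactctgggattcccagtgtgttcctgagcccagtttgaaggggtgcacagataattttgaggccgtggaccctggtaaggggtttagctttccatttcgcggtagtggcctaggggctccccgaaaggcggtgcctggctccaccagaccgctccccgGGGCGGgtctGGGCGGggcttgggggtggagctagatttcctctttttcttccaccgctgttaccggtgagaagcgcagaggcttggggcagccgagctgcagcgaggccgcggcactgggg
GC boxes occurred at 2 positions in Kdr, 3 in Flt1, 2 in Vegfc and 2 in Vegfa, and 35.7% of 32851 RefSeq windows of the same 300 bases held at least 1. The motif AGGAAG occurred at 2 positions in Flt1 and at none in the Kdr, Vegfc and Vegfa windows, and 35.4% of all windows held it. A related ETS-type motif, CGGAAG, and the hypoxia response core ACGTG were in none of these 4 windows, against 16.9% and 19.6% of all. The other Vegfa window, not shown, held ACGTG at 1 position. G and C made up 60.7% (Kdr) to 70.7% (Flt1) of the bases in these 4 windows, against a median of 52.7% over all, so the shares come from windows of unlike composition. A match is a run of letters and not a measured binding site.

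**Figure D2:**
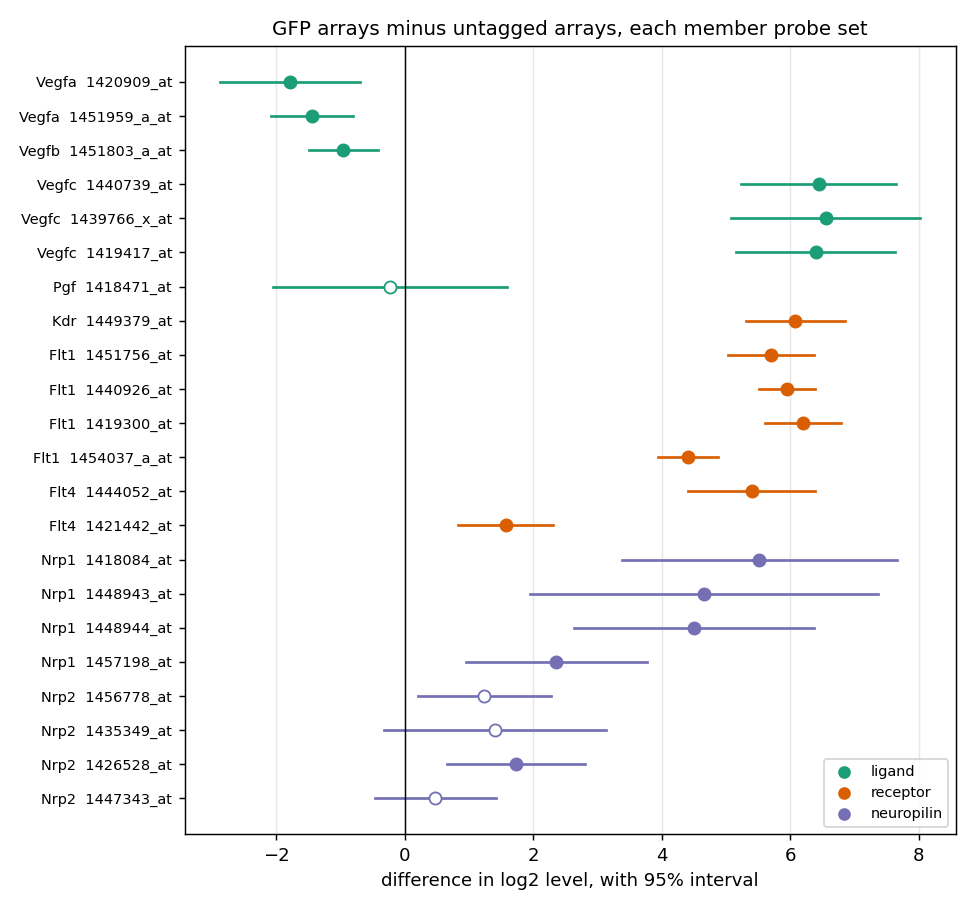
Difference in log2 level between the GFP arrays and the untagged arrays (horizontal axis, GFP minus untagged) for each of the 22 probe sets (vertical axis), with 95% intervals; filled points passed a limma adjusted p of 0.05 and open points did not. Probe sets of Vegfc, Kdr, Flt1, Flt4 and Nrp1 lie to the right of 0 and those of Vegfa and Vegfb to the left, while 3 of 4 Nrp2 probe sets and Pgf are open.

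Nrp1, the co-receptor of Vegfa and Sema3a, was above the dim limit on 4 of 5 untagged arrays on its brightest probe set and higher still in the GFP arrays. On 1418084_at it stood at 12.26 (carcinoma GFP) and 12.22 (papilloma GFP), against 7.09, 8.20 and 4.51 in untagged carcinomas 1 to 3 and 6.92 and 6.80 in untagged papillomas 1 and 2. Carcinoma 2 was the highest untagged array, and carcinoma 3 lay below its dim limit of 5.71. The difference was 5.52 (SE 0.89, limma adjusted p = 0.00875), and the call ended without carcinoma GFP (5.36, adjusted p = 0.127) or papilloma GFP (5.66, adjusted p = 0.0767).

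The tag differences of the other Nrp1 probe sets were 4.66 (SE 1.13) on 1448943_at, 4.50 (SE 0.78) on 1448944_at and 2.36 (SE 0.59) on 1457198_at, all past the threshold. The first 2 of these also had carcinoma 2 highest and carcinoma 3 lowest among the untagged arrays. On 1448943_at carcinoma 2 stood at 8.77 and carcinoma 3 at 4.01, with 7.01 to 7.15 in the other untagged arrays. On 1448944_at carcinoma 2 stood at 7.59 and carcinoma 3 at 4.34, with 5.76 to 6.29 in the others, and 3 of 5 untagged arrays passed the dim limit. Carcinoma 3 was also lowest in the mean of the fibroblast markers, at 6.11 against 7.40 to 8.24 in the other untagged arrays, and in the mean of the pericyte and smooth muscle markers, at 6.06 against 6.68 to 6.99. The same held for the myeloid and leukocyte markers, at 5.31 against 5.52 to 6.28, and barely for the blood endothelial markers, at 5.34 against 5.35 to 5.77. It did not hold for the lymphatic and keratinocyte markers. The part of all these markers in the Nrp1 order was not tested. The dim probe set 1457198_at had the widest gap of the 22 between the GFP arrays, at 6.50 (carcinoma GFP) and 8.99 (papilloma GFP), against 4.73 to 5.74 in the untagged arrays. On it 2 of 5 untagged arrays passed the dim limit.

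Nrp2, the co-receptor that pairs with Flt4 and binds Vegfc and Sema3f, was above the dim limit on all arrays and on its brightest probe set differed less along the tag than Kdr, Flt1, Flt4 and Nrp1 on theirs, though the difference between genes was not tested. On 1456778_at it stood at 9.87 (carcinoma GFP) and 9.28 (papilloma GFP), against 9.04, 8.90 and 7.62 in untagged carcinomas 1 to 3 and 8.54 and 7.79 in untagged papillomas 1 and 2. The GFP arrays were the highest, but carcinoma 1 was within 0.24 units of papilloma GFP. The difference was 1.24 (SE 0.43, limma adjusted p = 0.109). It was 1.41 (SE 0.72, adjusted p = 0.257) on 1435349_at and 1.73 (SE 0.45, adjusted p = 0.0465) on 1426528_at, so 1 of the 3 bright probe sets passed the threshold. With arrays shifted to equal keratinocyte marker means 1456778_at differed by 2.52 (limma adjusted p = 0.000939), but 27182 of all 34945 probe sets were then called higher. Relative to the median of all probe sets 1456778_at differed by 1.31 with and without this shift, which cannot change that value. The other, 1447343_at, was dim, at 4.67 and 5.89 in the GFP arrays and 4.32 to 5.31 in the untagged arrays. Carcinoma 3 and papilloma 2 were the lowest arrays on all 3 bright probe sets.

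None of the 22 probe sets passed the threshold between carcinoma and papilloma. With the tag as a covariate the differences lay between -0.63 and 0.84 (SE 0.16 to 1.03), the lowest limma adjusted p was 0.9999, and 0 of the 22 had an unadjusted p under 0.05. Over all 34945 probe sets limma called 0% in either direction at the same threshold, and 1.58% had an unadjusted p under 0.05. Among the untagged arrays the widest gap on a brightest probe set was that of Vegfa, which averaged 9.99 in 3 carcinomas and 9.19 in 2 papillomas, a difference of 0.80 (SE 0.53, limma adjusted p = 0.9999 without the GFP arrays). With all 7 arrays Vegfa differed by 0.67 (95% interval -0.32 to 1.67), Vegfb by 0.00 (-0.49 to 0.49) and Pgf by -0.22 (-1.89 to 1.45). Kdr differed by -0.19 (-0.89 to 0.51), Flt1 on its brightest probe set by -0.20 (-0.81 to 0.40) and Flt4 by -0.08 (-0.99 to 0.82). Vegfc differed by 0.27 (-0.84 to 1.37), Nrp1 by -0.17 (-2.12 to 1.78) and Nrp2 by 0.42 (-0.52 to 1.36). The intervals of Vegfa, Vegfc, Pgf, Nrp1 and Nrp2 reach past 1 unit, a doubling, in at least 1 direction, and those of Vegfb, Kdr, Flt1 and Flt4 do not.

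**Figure D3:**
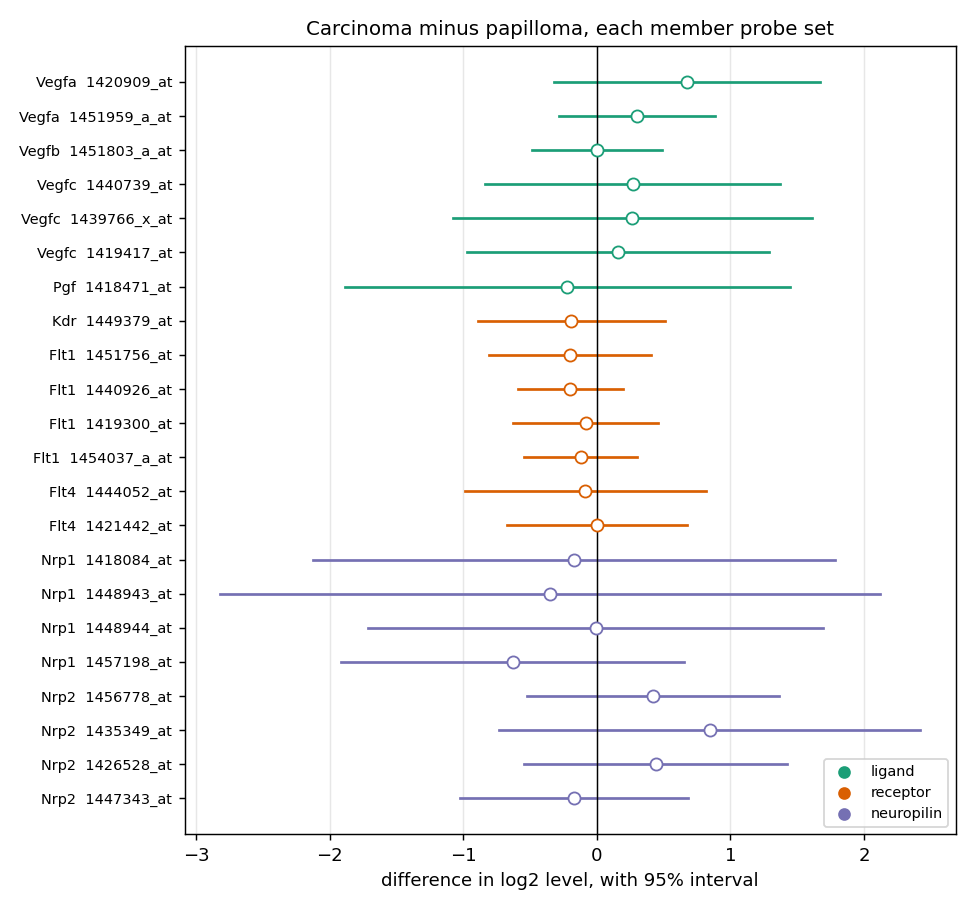
Difference in log2 level between carcinoma and papilloma (horizontal axis, carcinoma minus papilloma) for each of the 22 probe sets (vertical axis), with the GFP tag as a covariate and 95% intervals. All points are open, since none passed a limma adjusted p of 0.05, and all intervals include 0.

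The tag difference was also compared between the tumour types. The test of this interaction called 0 of the 22 probe sets and 0% of all at a limma adjusted p of 0.05, and 2 of the 22, the dim 1457198_at of Nrp1 and 1447343_at of Nrp2, had an unadjusted p under 0.05, against 2.71% of all. With 1 GFP array in each tumour type this test has no spread of its own for the tagged arrays. Flt4 was higher in carcinoma GFP than in papilloma GFP by 0.95 on 1444052_at and by 0.28 on 1421442_at, while Kdr differed by 0.11 and the brightest Flt1 probe set by 0.09. Other cell type markers also differed between these arrays. All 5 lymphatic endothelial markers were higher in carcinoma GFP, by a median of 2.59, as were 9 of 10 fibroblast markers (median 0.88). So were 9 of 9 pericyte and smooth muscle markers (0.47), 8 of 8 myeloid and leukocyte markers (0.28) and 7 of 15 blood endothelial markers (-0.02). Of all 18193 genes 10353 were higher in carcinoma GFP, and their median over all was 0.05. The part of these markers in the Flt4 gap was not tested. Prox1, the master regulator of lymphatic identity, stood at 8.14 (carcinoma GFP) and 4.59 (papilloma GFP), and Lyve1, a hyaluronan receptor of lymphatic vessels, at 10.78 and 8.29. These are differences between 2 single arrays and have no replicate check.

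The rest of the pathway was described by 4 lists, each gene on its brightest probe set, and of all 18193 genes 11% rose, 7.11% fell, 53.9% were above the dim limit on all untagged arrays, and the median tag difference was -0.05. These shares are the background of each count. Of the VEGF receptor signalling list 25 of 32 genes were measured, 6 rose in the GFP arrays, 0 fell and 19 did not pass, with a median of 0.17, against 11% and 7.11% of all genes. Ptprb, an endothelial phosphatase that acts on Tek and Cdh5, passed the limit on 0 untagged arrays and was at least 53.4-fold higher (limma adjusted p = 5.99e-05), and Nos3, the endothelial nitric oxide synthase, was higher by 4.36 (SE 0.23, limma adjusted p = 0.00012). Plcg1, the phospholipase recruited by Kdr, was higher by 2.07 and was bright in the untagged arrays too, at 8.37 to 9.44, and Prkcb, a protein kinase C, was higher by 1.99. Of this list 21 of 25 genes were above the dim limit on all untagged arrays, against 53.9% of all genes.

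Among the neuropilin partners 6 of 12 rose, 2 fell and 4 did not pass, with a median of 1.13, against 11% and 7.11% of all genes. Plxnd1, a plexin of endothelial cells, was higher in the GFP arrays by 4.82 (SE 0.19, limma adjusted p = 4.88e-05), and Sema3g, a class 3 semaphorin of arteries, was higher by at least 3.85 log2 units (limma adjusted p = 4.13e-05). The repulsive ligand Sema3a was at least 5.38-fold higher (limma adjusted p = 0.00105). Sema3d stood at 7.43 in carcinoma GFP and at 5.13, below the dim limit, in papilloma GFP, so its rise (limma adjusted p = 0.0218) rests on 1 array above the limit. Sema3a, Sema3d, Sema3e and Sema3g were below the dim limit on every untagged array, and 6 of the 12 partners were above it on all of them, a share near the 53.9% of all genes.

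Of the other vascular ligands and receptors 14 of 23 rose, 1 fell and 8 did not pass, with a median of 2.34, against 11% and 7.11% of all genes. The apelin receptor Aplnr was higher in the GFP arrays by 7.40 (SE 0.39, limma adjusted p = 0.000125), with 2 of 5 untagged arrays above the limit. Notch4, a Notch receptor of endothelium, was at least 35.2-fold higher and Tek, the angiopoietin receptor, at least 28.5-fold, each with 0 untagged arrays above the limit. Pdgfrb, the receptor of pericytes and fibroblasts, with 1 such array, was at least 40.8-fold higher. Vegfd, another ligand of Flt4, stood at 7.02 (carcinoma GFP) and 6.60 (papilloma GFP), against 5.02, 7.68 and 4.92 in untagged carcinomas 1 to 3 and 8.02 and 7.38 in untagged papillomas 1 and 2. Carcinomas 1 and 3 were the low arrays. Its tag difference was 0.09 and its tumour type difference was -1.17 (SE 0.79), and neither passed the threshold (limma adjusted p = 0.962 and 0.9999).

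Of the hypoxia factors and targets 2 of 18 rose, 1 fell and 15 did not pass, counts near the 11% and 7.11% of all genes, and the median was -0.37. Epas1, the hypoxia-inducible factor of endothelium, was higher in the GFP arrays by 4.36 (SE 1.06, limma adjusted p = 0.0368), and Slc2a1, a glucose transporter, differed by -1.15 (SE 0.24, limma adjusted p = 0.0227). Bnip3, a mitophagy receptor, differed by -1.22 and Hk2, a hexokinase, by -1.12 (limma adjusted p = 0.0681 and 0.0583). Epas1 stood at 5.52 in carcinoma 3 and at 8.36 to 9.61 in the other untagged arrays, so carcinoma 3 was lowest for it as for Nrp1. None of the genes of these 4 lists passed the threshold between carcinoma and papilloma.

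**Figure D4:**
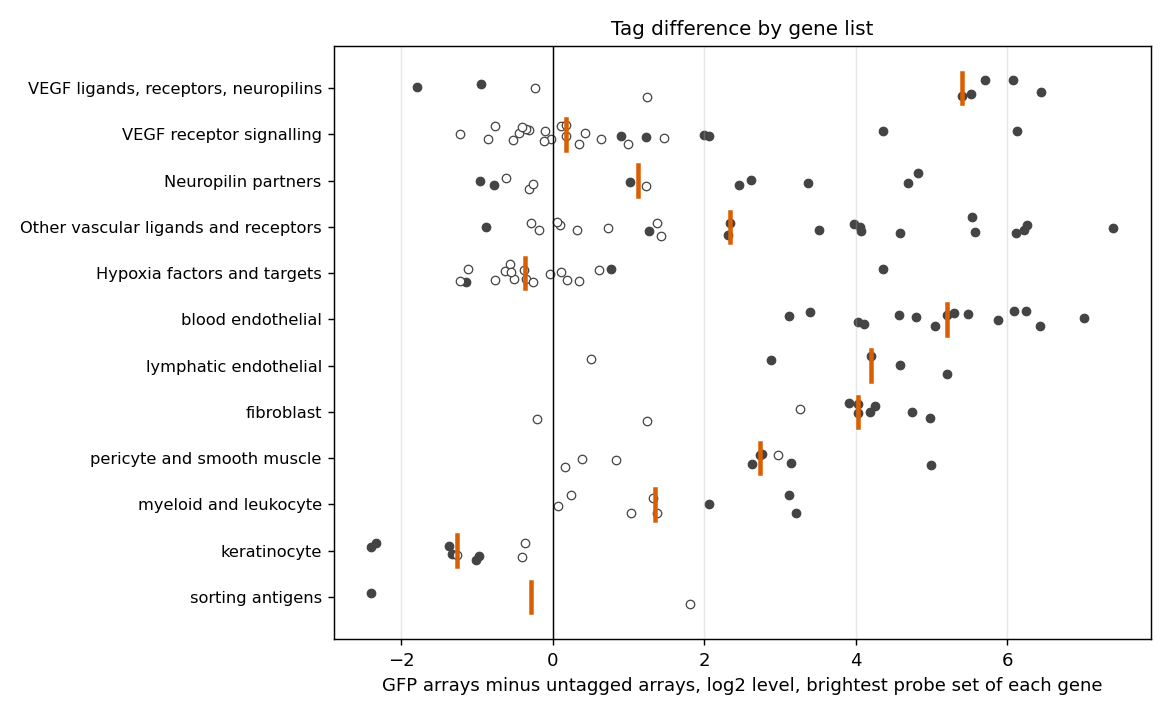
Difference in log2 level between the GFP arrays and the untagged arrays (horizontal axis, GFP minus untagged) for each gene of the lists named on the vertical axis, on its brightest probe set; filled points passed a limma adjusted p of 0.05, open points did not, and orange bars are list medians; differences against untagged levels under the dim limit are fitted values. Blood endothelial markers have a median of 5.21 and keratinocyte markers one of -1.27, and the VEGF genes spread over the range of both.

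Likeness was measured as the root mean square difference of log2 levels over the 7 arrays, after each gene's own mean was taken off, among 18192 other genes. Nearest to Kdr were Cldn5, the claudin of endothelial junctions, at 0.21, Flt1 at 0.21 and Tek at 0.27. Nearest to Flt1 were Cldn5 at 0.18, the transcription factor Zeb1 at 0.19 and Kdr at 0.21, and nearest to Flt4 were Flt1, Cldn5 and Pdgfd at 0.30 to 0.32. Vegfc was farther from its neighbours, with Vwf at 0.52, Cdh5 at 0.53 and Serpina1b at 0.54. Nearest to Nrp1 were Fstl1, a secreted glycoprotein, at 0.43 and the basement membrane collagens Col4a1 at 0.45 and Col4a2 at 0.49.

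The neighbours of Vegfa and Vegfb had no endothelial marker among them. Nearest to Vegfa were Arhgef4, a guanine nucleotide exchange factor, at 0.16, Sema4b, a semaphorin, at 0.26 and Fhl2, a LIM domain protein, at 0.26. Arhgef4 stood at 7.39 (carcinoma GFP) and 7.57 (papilloma GFP), against 9.13, 9.35 and 10.36 in the untagged carcinomas and 9.33 and 8.12 in the untagged papillomas, so carcinoma 3 was highest and papilloma 2 lowest among the untagged arrays, as for Vegfa. Nearest to Vegfb were Dtnb, Pbx2 and Cdk2 at 0.09 to 0.11. A profile that is nearly flat apart from the tag has many near neighbours, and likeness over arrays that share the tag is a description only.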

How the data were processed

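RNA of sorted tumour cells was hybridised to 7 Affymetrix mouse 430 arrays, and groups were taken from the tumour type and the tag GFP in the titles. Per the labels' protocols the authors normalized the arrays with RMA, for which the submitters' processing notes also list affy. The deposited values are log2 levels, read as such from their range, and software versions, the probe set definitions used and the set of arrays that RMA ran over are unstated in these sources. Probe sets were named from the platform annotation of 2016. Of 45101 probe sets 64 were controls, 932 had several symbols and 9160 were not listed, and 34945 with 1 symbol were tested with limma 3.58.1 (R 4.3.3, lmFit and eBayes) on tumour type and tag together, with Benjamini-Hochberg adjustment and a threshold of 0.05. Dim probe sets were kept. No probe position was used here, so the distance of a probe set from the 3' end of its transcript is not part of any result.

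The members and lists were chosen with earlier results of these data known. All probe sets of the 9 genes, up to 4 genes per pathway list with the largest tag difference, the markers and the 3 nearest genes of each called gene and Vegfa were named by rule. Vegfd, the markers of the GFP pair and Epas1 in carcinoma 3 were singled out after their values were seen. Deviations from the tumour type means correlated at 0.413, 0.173 and 0.82 for the arrays numbered 1, numbered 2 and tagged GFP, across probe sets, and papilloma 1 correlated more with carcinoma 2, at 0.697, so the numbers do not settle pairs and the replicate block is given as an alternative. The fits were also run on simulated arrays with independent normal errors. Such arrays hold no shared quality or cell mixture along the tag, so this run cannot check the fits for these. Plots used matplotlib 3.10.9 (Python 3.11.15).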

Additional observations from a re-analysis of the deposited data

Results flagged for a closer look

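Single arrays were compared with the rest of their group on each of the 22 probe sets, once among the 4 carcinoma arrays and once among the 5 untagged arrays, by the gap to the nearest array over the range (Dixon's 95% limit, which chance passes in about 1 of 20 groups). Carcinoma GFP stood apart from the other carcinomas on 6 probe sets, at 12.54 for Kdr, 12.20, 11.04, 10.88 and 9.19 for the Flt1 probe sets 1451756_at, 1440926_at, 1419300_at and 1454037_a_at, and 11.60 for Flt4 on 1444052_at. These are the tag differences of the report seen within 1 tumour type. Among the untagged arrays carcinoma 2 stood apart on Vegfc 1440739_at, at 5.71 against 3.91 to 4.23 in the others.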

How the results depend on the processing

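The rises of Vegfc, Kdr, Flt1 and Flt4 along the tag kept their direction and their call under all 16 alternatives, with ranges of 6.0 to 7.72, 5.86 to 7.35, 5.48 to 6.98 and 3.49 to 6.67. The counts of the tag comparison depended on the GFP arrays and on the scaling. Leaving out 1 array at a time gave 9 (without papilloma GFP) to 14 member probe sets higher and 0 to 3 lower, 0 to 2 member genes lower, and 969 to 3161 probe sets higher and 331 to 2931 lower over all. Fewer samples lower the number of calls by construction. With equal keratinocyte marker means 27182 probe sets were higher and 395 lower over all, 0 member probe sets and 0 member genes were lower, Pgf turned to 1.05 and Vegfb to 0.32. With all probe sets but controls, or with trend and robust set, 1 member gene was lower. Array weights gave 5218 higher and 5671 lower, the mean over the probe sets of each gene 1846 and 1385, and the brightest probe sets 1442 lower, with fewer features in the last 2. The tag difference of Nrp2 passed the threshold with array weights (1.05) and equal keratinocyte means (2.52), and that of Pgf ranged from -0.68 to 0.17 with 1 array left out. A dim limit at the 99th percentile left 7 of the 22 member probe sets above it on all untagged arrays, where 36.7% of all probe sets were, and 9 on none.

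No member passed between the tumour types under any of the 18 alternatives, and the mean over the probe sets of each gene called 1 gene lower over all. Without calls, signs turned for Vegfb without both GFP arrays (-0.10), with array medians made equal (-0.018) and with equal keratinocyte means (-0.22), for Vegfc without the tag covariate (-0.27), and with array weights for Pgf (0.18), Flt4 (0.38) and Nrp1 (0.27). With the replicate block in place of the tag, Vegfb was at -0.026, Pgf at 0.16 and Nrp1 at 0.54, and 0 genes were called. Leaving out 1 array gave ranges of -0.14 to 0.21 for Vegfb, -0.14 to 0.52 for Vegfc, -0.72 to 0.31 for Pgf, -0.47 to 0.17 for Kdr, -0.36 to 0.042 for Flt1, -0.52 to 0.37 for Flt4 and -0.69 to 0.54 for Nrp1. The cause of these changes was not tested.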
